A study of Mus musculus with 8 samples.

Results

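RANK, encoded by *Tnfrsf11a*, is the receptor through which its ligand RANKL turns bone marrow precursors into osteoclasts, the multinucleated cells that resorb bone. Described here are 10 genes of that signal, from the receptor to the transcription regulators at its end: *Tnfrsf11a*, *Traf6*, *Gab2*, *Map3k7*, *Tab2*, *Nfatc1*, *Mitf*, *Tfec*, *Ppargc1b* and *Esrra*. They were taken by name for their known roles, though with earlier results of these data known, out of 46517 genes in the table. All 10 were found, and all 10 reached 10 normalized counts in 4 or more libraries, the condition for testing, which 14139 genes met.

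The data were RNAseq libraries of osteoclast cultures, 4 from mice with a global deletion of *Elmo1* (Elmo1-/-) and 4 from Elmo1+/- mice, which keep an intact copy and served as controls. *Elmo1* encodes a cytoplasmic adaptor that acts with DOCK proteins to activate the GTPase Rac, and the study asked which osteoclast genes change without it. Marrow of mice 6 to 8 weeks old was cultured with 10% L929-conditioned medium as a source of M-CSF, and GST-RANKL was given at 50 ng/ml over 7 days in both genotypes. Every culture had therefore received RANKL, and no unstimulated culture was compared, so the values below describe genes of the RANK pathway under stimulation and not their response to the ligand. The deletion is present in every cell of the mouse, and the controls are heterozygous, not wild type, although their titles abbreviate them as wild type. According to the methods of the study the mice came from 2 experiments with 2 of each genotype, but which mouse belonged to which is not stated.

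The libraries held 20905502 to 40846651 reads on genes. *Elmo1* itself was at 292 ± 17.6 normalized counts in Elmo1-/- cultures against 1593 ± 150.3 in Elmo1+/- cultures (mean ± SD, n = 4 each), a log2 fold change of -2.44 (SE 0.09, adjusted p = 8.4e-06 by limma), and the ranges, 274 to 316 and 1423 to 1769, did not overlap. A normalized count is the number of reads on a gene divided by a size factor of its library. The osteoclast markers were abundant, with *Ctsk*, encoding the collagen-degrading protease cathepsin K, at 69531 or more in every library. The libraries did not group by genotype: the first principal component carried 62.3% of the variance and placed libraries 1 and 2 of both genotypes on one side and libraries 3 and 4 on the other. Elmo1-/- library 1 lay farthest out at -0.63, and Elmo1-/- library 2 lay nearest the middle at -0.07. The numbers come from the titles and nothing states what they stand for, so each genotype difference is also given within these sets of libraries.

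As background, RANKL binding gathers RANK into trimers whose cytoplasmic tails recruit the ubiquitin ligase TRAF6 and the scaffold GAB2. TRAF6 builds ubiquitin chains that TAB2 reads, and TAB2 brings the kinase TAK1, encoded by *Map3k7*, into action upstream of NF-κB and the MAP kinases. These signals, with calcium, raise and activate NFATc1, the master transcription factor of osteoclasts, which acts with MITF and its relative TFEC on genes such as *Ctsk* and *Acp5*. In parallel, PGC-1β, encoded by *Ppargc1b*, coactivates the orphan nuclear receptor ERRα, encoded by *Esrra*, on genes of mitochondrial respiration, which fuel resorption.

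The upstream sequences of 4 of the genes are shown because they belong to the contrast the values turn on: *Tnfrsf11a* and *Traf6*, which were both higher in libraries 3 and 4 than in libraries 1 and 2, and *Tfec* and *Esrra*, whose levels in the sets overlapped. Each is the 250 bases before the RefSeq start of the gene, read 5′ to 3′ on the strand of the gene in GRCm38.p6, and they are chr1:105780473-105780722 (+), chr2:101678170-101678419 (+), chr6:16898442-16898691 (-) and chr19:6921809-6922058 (-) in that order. Capitals mark matches to the motifs named below.
Tnfrsf11a: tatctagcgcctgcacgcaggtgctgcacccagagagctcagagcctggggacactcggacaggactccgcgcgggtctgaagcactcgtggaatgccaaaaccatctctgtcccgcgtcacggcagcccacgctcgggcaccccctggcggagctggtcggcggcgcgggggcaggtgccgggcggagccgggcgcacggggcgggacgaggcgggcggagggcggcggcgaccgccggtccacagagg
Traf6: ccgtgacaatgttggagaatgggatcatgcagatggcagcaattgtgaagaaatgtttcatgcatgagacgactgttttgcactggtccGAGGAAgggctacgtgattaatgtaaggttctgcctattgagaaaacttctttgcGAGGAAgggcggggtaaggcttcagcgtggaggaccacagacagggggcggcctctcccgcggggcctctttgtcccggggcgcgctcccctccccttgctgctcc
Tfec: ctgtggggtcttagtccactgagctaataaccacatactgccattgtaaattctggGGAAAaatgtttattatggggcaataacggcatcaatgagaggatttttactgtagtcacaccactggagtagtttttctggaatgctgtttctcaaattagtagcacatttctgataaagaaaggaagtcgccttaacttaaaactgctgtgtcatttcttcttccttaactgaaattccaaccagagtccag
Esrra: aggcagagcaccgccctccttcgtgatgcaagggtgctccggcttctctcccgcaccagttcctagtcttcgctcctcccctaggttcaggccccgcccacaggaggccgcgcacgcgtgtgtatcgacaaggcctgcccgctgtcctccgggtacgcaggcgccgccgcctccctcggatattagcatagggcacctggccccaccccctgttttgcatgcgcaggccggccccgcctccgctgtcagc

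The 4 windows differ in composition. That of *Tnfrsf11a* was 73.6% G and C with 31 CG dinucleotides, that of *Esrra* 68.4% with 22, that of *Traf6* 56.4% with 13 and that of *Tfec* 39.2% with 2, beside medians of 52.4% and 6 over all 32851 windows of this length. The motifs of 5 factors or factor families were searched on both strands. The NFAT core GGAAA stood once in the *Tfec* window, at -194 to -190 from the start, and is found in 55.6% of all windows. The PU.1 core GAGGAA, which can overlap GGAAA where an A follows, stood at -161 to -156 and at -106 to -101 in the *Traf6* window and is found in 23.3% of all windows. The E-boxes CACGTG and CATGTG bound by MITF and its relatives (17.6% of all windows), the AP-1 site TGACTCA (4.46%) and the ERR half-site AAGGTCA (4.08%) were in none of the 4 windows. The windows of *Tnfrsf11a* and *Esrra* held no match to any of them. These are letter matches only. Windows were used for 7 of the 10 genes. None was used for *Gab2*, *Nfatc1* or *Ppargc1b*, which were also higher in libraries 3 and 4. Outside the 4 windows printed, GAGGAA also stood in a window of *Map3k7* and of *Tab2*, and GGAAA in that of *Map3k7* and at 2 of the 3 listed starts of *Mitf*. The bases after that *Tab2* start matched no annotated transcript. An AAGGTCA stood at the other *Mitf* start, at -152 to -146 on the opposite strand. Matches were thus found upstream of genes whose sets overlapped as well as of *Traf6*.

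None of the 10 genes passed the test between the genotypes. By limma, 0 of 10 passed an adjusted p of 0.05, and 0 of 10 had an unadjusted p under 0.05, against 0.00707% of all tested genes called, which is *Elmo1* alone. Over all tested genes, 133 had an unadjusted p under 0.05, edgeR called 1 gene and DESeq2 called 2, neither of them among the 10. For none of the 10 were the 4 Elmo1-/- libraries all above or all below the 4 Elmo1+/- libraries, a separation seen in 0.941% of tested genes. The log2 fold changes, Elmo1-/- relative to Elmo1+/-, ran from -0.05 for *Traf6* to 0.12 for *Mitf*, 6 of them above 0 and 4 below. Their median was 0.0037, and that of all tested genes was -0.0031. The adjusted p was 0.9999 for each gene by limma. The 95% intervals below give the differences that the limma fit with genotype alone left possible, and they varied by gene. For genes that differed between the sets of libraries, the width of the interval includes that difference.

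**Figure D1:**
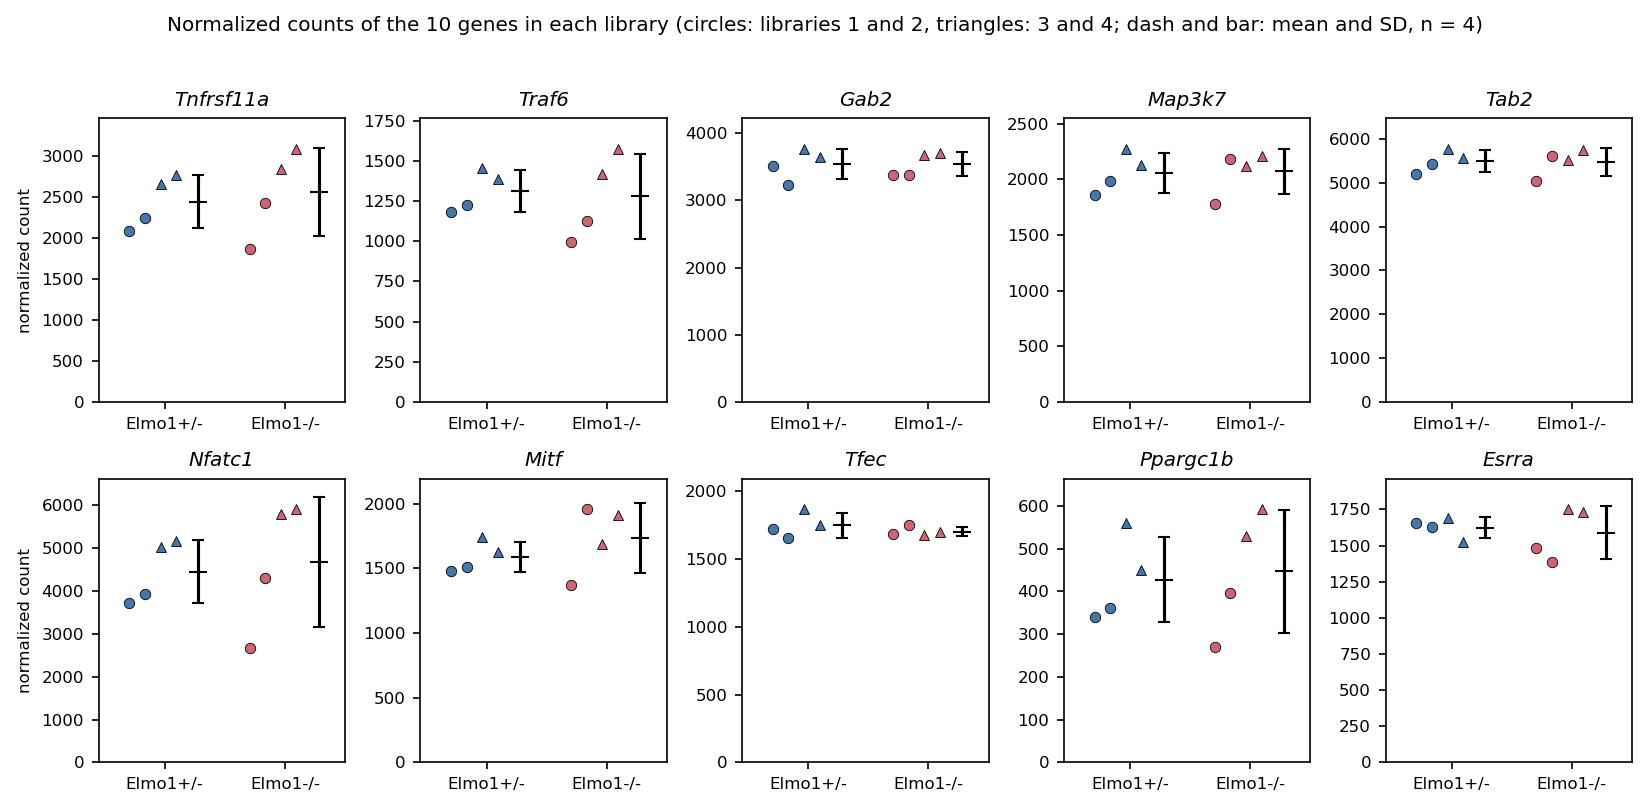
Normalized counts (y axes, from 0) of the 10 genes in each library, by genotype (x axes). Circles are libraries 1 and 2, triangles libraries 3 and 4, and the dash with its bar is the mean ± SD of 4 libraries. In *Tnfrsf11a*, *Traf6*, *Gab2*, *Nfatc1* and *Ppargc1b* every triangle lies above every circle, while in all 10 genes the genotypes overlap.

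At the head of the pathway, the receptor gene *Tnfrsf11a* (ENSMUSG00000026321, chr1:105780718-105847981 in GRCm38, + strand) was at 2089, 2249, 2660 and 2767 normalized counts in Elmo1+/- libraries 1 to 4 and at 1864, 2423, 2845 and 3087 in Elmo1-/- libraries 1 to 4. The genotypes overlapped, with the lowest and the highest library both Elmo1-/-, while libraries 3 and 4 stood above libraries 1 and 2 in both genotypes. Its log2 fold change was 0.05 (SE 0.16, 95% interval -0.32 to 0.42; exact permutation p = 0.83), which leaves room for a level from 19.8% lower to 33.6% higher in Elmo1-/- cultures. Within libraries 1 and 2 the log2 difference between the genotypes was -0.03, and within libraries 3 and 4 it was 0.13.

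The adaptor gene *Traf6* (ENSMUSG00000027164, chr2:101678429-101701669, + strand) was at 1179, 1223, 1456 and 1386 normalized counts in Elmo1+/- libraries 1 to 4 and at 993, 1128, 1419 and 1575 in Elmo1-/- libraries 1 to 4. The spread was wider in Elmo1-/- cultures, whose libraries 1 and 2 were below and whose library 4 was above every control. The log2 fold change was -0.05 (SE 0.15, 95% interval -0.39 to 0.28; exact permutation p = 0.743), made of -0.18 within libraries 1 and 2 and 0.07 within libraries 3 and 4. *Gab2* (ENSMUSG00000004508, chr7:97081586-97308946, + strand), the scaffold at the receptor, was steadier, between 3237 and 3769 normalized counts in controls and between 3381 and 3713 without *Elmo1*. Its log2 fold change was 0.00 (SE 0.07, 95% interval -0.16 to 0.16), an interval of 10.5% lower to 11.9% higher.

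The kinase TAK1 and its adaptor also gave narrow intervals. *Map3k7* (ENSMUSG00000028284, chr4:31964097-32023467, + strand) was between 1860 and 2275 normalized counts in controls and between 1777 and 2210 in Elmo1-/- cultures, with a log2 fold change of 0.01 (SE 0.09, 95% interval -0.21 to 0.22). *Tab2* (ENSMUSG00000015755, chr10:7905653-7956230, - strand) was between 5191 and 5773 in controls and between 5031 and 5739 in Elmo1-/- cultures, with a log2 fold change of -0.01 (SE 0.07, 95% interval -0.16 to 0.15). For both genes Elmo1-/- library 1 was the lowest of the 8 and Elmo1+/- library 3 the highest.

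*Nfatc1* (ENSMUSG00000033016, chr18:80606205-80713071, - strand) varied more between libraries than *Map3k7* and *Tab2*. It was at 3717, 3932, 5020 and 5157 normalized counts in Elmo1+/- libraries 1 to 4 and at 2680, 4301, 5800 and 5914 in Elmo1-/- libraries 1 to 4. Libraries 3 and 4 without *Elmo1* were the highest of all 8 and library 1 without *Elmo1* the lowest. The coefficient of variation was 16.5% in controls and 32.5% in Elmo1-/- cultures, and the residual SD of *Nfatc1* stood at percentile 83.1 of all tested genes. The log2 fold change of 0.02 (SE 0.25, 95% interval -0.54 to 0.57; exact permutation p = 1.0) therefore spans 31.4% lower to 49.0% higher. It was -0.17 within libraries 1 and 2 and 0.20 within libraries 3 and 4, so its sign was not shared by the sets.

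The MiT family factors differed from each other in how steady they were. *Mitf* (ENSMUSG00000035158, chr6:97807052-98021349, + strand) was at 1479, 1510, 1740 and 1626 normalized counts in Elmo1+/- libraries 1 to 4 and at 1371, 1959, 1692 and 1915 in Elmo1-/- libraries 1 to 4. Libraries 2 and 4 without *Elmo1* were the highest of the 8 and library 1 the lowest. The log2 fold change of 0.12 (SE 0.12, 95% interval -0.15 to 0.38; exact permutation p = 0.4) was the largest of the 10 genes, and *Mitf* was the 1 gene of the 10 with the same sign in both sets, 0.13 and 0.10. *Tfec* (ENSMUSG00000029553, chr6:16833373-16898441, - strand), a relative of MITF made mainly in macrophages and osteoclasts, was at 1720, 1656, 1870 and 1750 in Elmo1+/- libraries 1 to 4 and at 1684, 1749, 1675 and 1697 in Elmo1-/- libraries 1 to 4. All 8 values of *Tfec* lay within this narrow band, with a coefficient of variation of 1.95% in Elmo1-/- cultures and a residual SD at percentile 2.84 of tested genes. Its log2 fold change was -0.04 (SE 0.06, 95% interval -0.18 to 0.10).

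Of the mitochondrial arm, the coactivator gene *Ppargc1b* (ENSMUSG00000033871, chr18:61298136-61400431, - strand) was at 340, 362, 560 and 449 normalized counts in Elmo1+/- libraries 1 to 4 and at 270, 396, 530 and 593 in Elmo1-/- libraries 1 to 4. Like *Nfatc1*, it was lowest in Elmo1-/- library 1 and highest in Elmo1-/- library 4, but Elmo1+/- library 3 was above Elmo1-/- library 3. Its log2 fold change was 0.03 with the widest interval of the 10 (SE 0.26, 95% interval -0.55 to 0.61). *Esrra* (ENSMUSG00000024955, chr19:6910977-6921813, - strand), the receptor it coactivates, was at 1653, 1631, 1689 and 1523 in Elmo1+/- libraries 1 to 4 and at 1481, 1385, 1752 and 1732 in Elmo1-/- libraries 1 to 4. Among libraries 1 and 2 both Elmo1-/- values were below both controls, and among libraries 3 and 4 both were above them, with log2 differences of -0.20 and 0.12 that nearly cancelled in the overall value of -0.04 (SE 0.09, 95% interval -0.24 to 0.16). This opposite pattern rests on 2 libraries a genotype in each set and was not tested. In the annotation *Esrra* shares 73 exon bases with *Trmt112* on the opposite strand, and since the strand setting of the counting is not stated, reads there cannot be assigned to either gene.

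**Figure D2:**
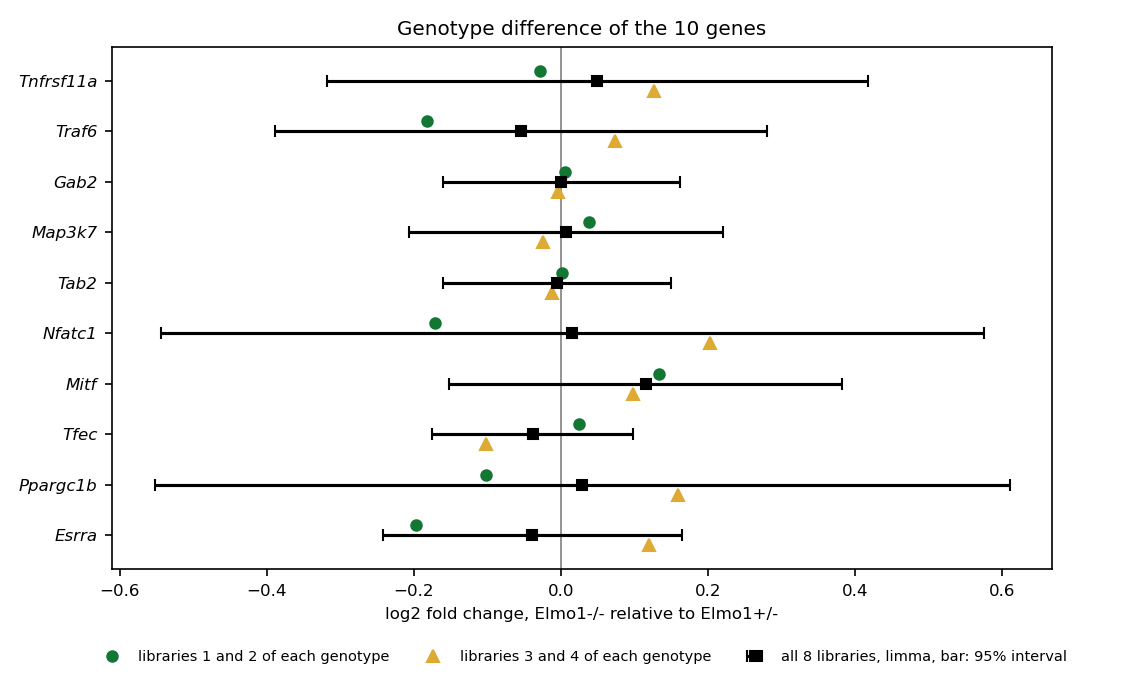
Log2 fold change (x axis) of each of the 10 genes (y axis), Elmo1-/- relative to Elmo1+/-. Squares are the limma values over 8 libraries with their 95% intervals, circles the difference within libraries 1 and 2, and triangles that within libraries 3 and 4. Every interval contains 0, the widest are those of *Nfatc1* and *Ppargc1b*, and *Mitf* has circle and triangle on the same side of 0.

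While no difference by genotype was called in the 10 genes, the library numbers parted 5 of them. Libraries 3 and 4 of both genotypes were all above libraries 1 and 2 for 5 of 10 genes, namely *Tnfrsf11a*, *Traf6*, *Gab2*, *Nfatc1* and *Ppargc1b*, and for none were they all below. Over all tested genes 18.1% were parted upwards and 15.8% downwards. The mean of libraries 3 and 4 exceeded that of libraries 1 and 2 in all 10 genes on the log2 scale, beside 49.0% of all tested genes. The median difference was 0.16 against -0.01 over all tested genes. In both genotypes taken alone, 8 of the 10 were higher in libraries 3 and 4, beside 39.6% of tested genes. The same 5 genes were parted when the reads were rescaled to equal totals or by TMM. These differences are descriptions, since the sets were recognised from the same libraries.

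Of the 10 genes, the largest differences between the sets were those of *Ppargc1b* and *Nfatc1*. *Ppargc1b* was at 533 ± 61.5 normalized counts in libraries 3 and 4 and at 342 ± 53.5 in libraries 1 and 2 (mean ± SD, n = 4 each), a log2 difference of 0.65. *Nfatc1* was at 5473 ± 449 against 3657 ± 695, a log2 difference of 0.60, and its difference was 0.41 in Elmo1+/- and 0.79 in Elmo1-/- cultures taken alone. The receptor and its adaptor followed with 0.40 for *Tnfrsf11a* and 0.37 for *Traf6*, while *Gab2*, though parted, differed by 0.13.

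Among the 5 genes whose sets overlapped, the log2 difference was 0.17 for *Map3k7*, 0.15 for *Mitf*, 0.12 for *Esrra*, 0.09 for *Tab2* and 0.04 for *Tfec*. Its sign was not shared by the genotypes in *Tfec*, at -0.03 in Elmo1-/- cultures alone, or in *Esrra*, at -0.03 in Elmo1+/- cultures alone. The count depended on Elmo1-/- library 2, the library nearest the middle of the first principal component: without it 8 of 10 genes were parted, *Map3k7*, *Tab2* and *Mitf* being added, beside 26.9% of tested genes. Without Elmo1+/- library 4 it was 6, with *Esrra* added, beside 20.4%, and without any other single library it was 5.

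The osteoclast markers moved with these differences. All 8 were parted upwards, beside 18.1% of all tested genes. Their summed normalized counts ran from 444184 to 681561 in libraries 1 and 2 and from 1015709 to 1155319 in libraries 3 and 4. Of 6 macrophage markers 4 could be tested, all lower in libraries 3 and 4 and 2 of them parted, *Mrc1* by a log2 difference of -1.13 and *Cd163* by -0.62, though their summed counts, 298589 to 313617 against 247552 to 329329, overlapped. All 8 neutrophil markers were lower in libraries 3 and 4, 1 of them parted, with sums of 13116 to 22559 against 10326 to 13489. The T cell marker list summed to at most 15.1 normalized counts and the mast cell list to at most 24.1 in any library, each with 1 gene listed at 0 throughout. The dendritic cell list reached 137, the B cell list 678 and the osteoblast and stroma list 1189. The part of the cell make-up in the differences was not tested, and in bulk cultures fewer cells of a type and less RNA per cell cannot be told apart.

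Levels of different genes can be compared only per length, here as normalized count per kilobase of merged exons. In this scale *Tab2* was the highest of the 10 at 893 on the mean of 8 libraries, followed by *Nfatc1* at 611 and *Gab2* at 574, and the receptor gene *Tnfrsf11a* was at 417. *Esrra* at 366, *Map3k7* at 322, *Tfec* at 308 and *Mitf* at 268 came next, and *Traf6* at 164 and *Ppargc1b* at 110 were lowest. The median tested gene was at 152, so that *Ppargc1b* was the 1 gene of the 10 below it. The 8-library ranges did not overlap between *Tab2* and *Nfatc1*, between *Gab2* and *Tnfrsf11a* or between *Mitf* and *Traf6*, and every other pair of neighbours overlapped. Taking the longest transcript as the length raised *Esrra* to 645, above *Gab2* at 574, and *Tfec* to 510, above *Tnfrsf11a* at 497, so the middle of the order depends on the length used.

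**Figure D3:**
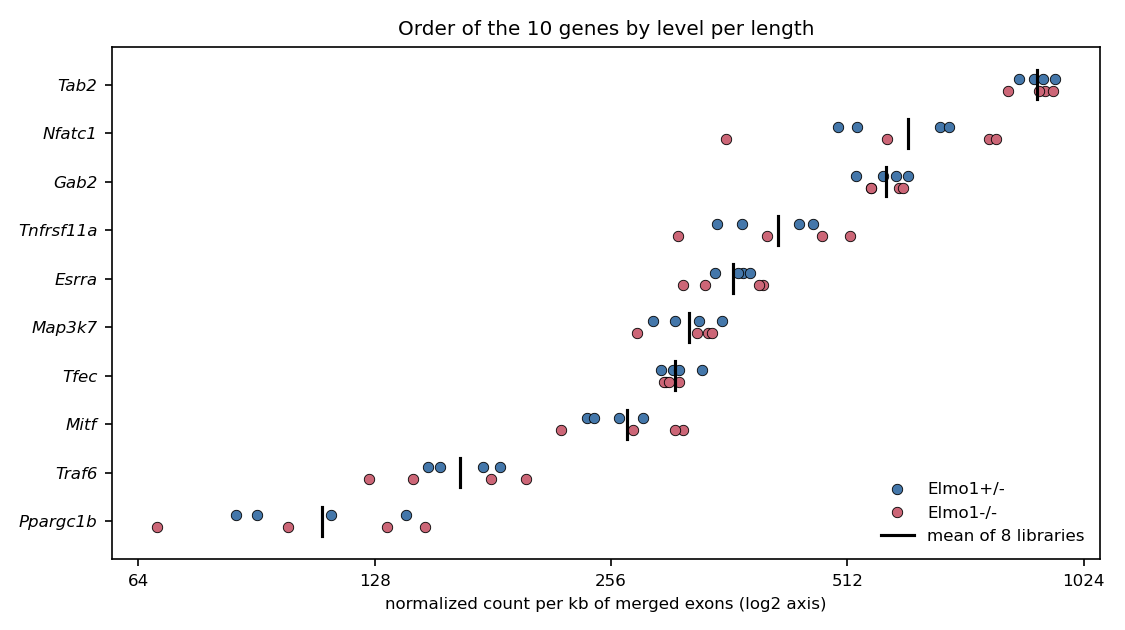
Level of the 10 genes (y axis, in order of their mean) as normalized count per kilobase of merged exons (x axis, log2 scale), with 1 point per library coloured by genotype and a line at the mean of 8 libraries. *Tab2* lies above the others in every library, from 820 to 941, and *Ppargc1b* lowest, from 67.6 to 149.

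Partners that act together were compared as a ratio within each library, which does not depend on the size factor. Of 4 ratios tested between the genotypes, 0 had an exact permutation p under 0.05. The log2 ratio of *Tab2* to *Map3k7* was 1.42 ± 0.06 in Elmo1+/- and 1.40 ± 0.07 in Elmo1-/- cultures (mean ± SD, n = 4; exact permutation p = 0.886). That of *Traf6* to its receptor *Tnfrsf11a* was -0.892 ± 0.074 in Elmo1+/- and -0.996 ± 0.082 in Elmo1-/- cultures, a difference of -0.10 (n = 4; exact permutation p = 0.0857), where the smallest p that 70 arrangements allow is 0.0286. For *Ppargc1b* to *Esrra* the log2 ratio was -1.95 ± 0.33 and -1.88 ± 0.40 (n = 4; exact permutation p = 0.83). It instead followed the library numbers, from -2.45 to -1.80 in libraries 1 and 2 and from -1.76 to -1.54 in libraries 3 and 4.

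The *Mitf* to *Tfec* ratio hung on a single library. Its log2 values were -0.22, -0.13, -0.10 and -0.11 in Elmo1+/- libraries 1 to 4 and -0.30, 0.16, 0.01 and 0.17 in Elmo1-/- libraries 1 to 4. Elmo1-/- libraries 2 to 4 were above every control and library 1 was below every control, and the difference of 0.15 had an exact permutation p of 0.229. Without Elmo1-/- library 1 the difference was 0.26 with an exact permutation p of 0.0286, the smallest that arrangement of libraries allows, before any correction for the 4 ratios. No other library changed a call on these ratios.

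A further 67 genes of the pathway, in 7 lists of relatives, partners and targets, were read in the same fit, and 62 of them could be tested. None passed the threshold by limma and 0 had an unadjusted p under 0.05. The median log2 fold change was -0.01. The 1 gene whose genotypes did not overlap was *Pprc1*, a relative of *Ppargc1b*, with a log2 fold change of 0.06 (SE 0.05). Such a separation was seen in 0.941% of all tested genes. By library number, 37 of the 62 were parted upwards in libraries 3 and 4 and 7 downwards, with a median log2 difference of 0.31. Over all tested genes these shares were 18.1% and 15.8%, which also stand beside the counts of single lists below.

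Of the ligand and its antagonists, *Tnfsf11*, encoding RANKL, had at most 2 reads in a library. *Tnfrsf11b*, encoding the decoy receptor osteoprotegerin, was between 22.7 and 370 normalized counts, and *Lgr4*, another receptor for RANKL, between 38.8 and 99.6. Both were parted upwards by library number, by log2 differences of 1.83 and 0.80, and their log2 fold changes between genotypes were -0.28 (SE 0.78) and 0.26 (SE 0.32).

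Among 13 proximal adaptors and regulators, 0 were called and the log2 fold changes ran from -0.08 for *Src*, a kinase that acts in the osteoclast cytoskeleton, to 0.08 for *Traf1*. By library number 6 of the 13 were parted upwards, *Src* by 0.86, *Cblb*, a ubiquitin ligase that restrains the signal, by 0.61 and *Tnfaip3*, encoding the NF-κB inhibitor A20, by 0.50, and *Traf2* was parted downwards by -0.29. Of the other relatives of *Traf6*, *Traf3* and *Traf5* were parted upwards by 0.20 and 0.35, and *Traf1* overlapped at -0.04. The TAK1 adaptors *Tab1* and *Tab3*, relatives of *Tab2*, overlapped between the sets with differences of -0.0037 and 0.13. Of 13 downstream kinases, 6 were parted upwards, *Map2k3* most at 0.42, and 3 downwards, *Mapk14* encoding p38α at -0.33, *Map3k14* encoding NIK at -0.33 and *Mapk3* encoding ERK1 at -0.26. Their log2 fold changes between genotypes ran from -0.10 for *Ikbkg* to 0.06 for *Map2k6*.

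The relatives of the master regulators did not share 1 direction by library number, 2 of the 5 tested in this list being above 0 and 3 below. *Nfatc2* was at 1270 ± 124 normalized counts in libraries 1 and 2 and at 900.3 ± 34.4 in libraries 3 and 4 (mean ± SD, n = 4 each), a log2 difference of -0.49, where *Nfatc1* was higher by 0.60. *Nfatc3* overlapped between the sets with a difference of 0.09, in the direction of *Nfatc1*, and its log2 fold change between genotypes was 0.03 (SE 0.07). The MiT member *Tfe3* was parted downwards by -0.35, *Tfeb* overlapped at -0.12, and *Spi1*, encoding the myeloid factor PU.1, was parted upwards by 0.12. Log2 fold changes between genotypes in this list lay between -0.04 for *Spi1* and 0.10 for *Tfeb*. *Nfatc4* did not reach the level for testing.

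Targets of NFATc1 and MITF were all higher in libraries 3 and 4. All 13 were parted upwards, with a median log2 difference of 1.15, from 0.29 for *Ostm1* to 1.58 for *Ctsk*. *Acp5*, encoding the phosphatase TRAP, was at 98612 ± 28153 in libraries 1 and 2 and at 233376 ± 19963 in libraries 3 and 4 (n = 4 each). Between genotypes 0 of 13 were called, and the values ran from -0.30 (SE 0.56) for *Ctsk* to 0.03 (SE 0.45) for *Ocstamp*, a gene of cell fusion, with a median of -0.12. As 8 of these 13 genes are also the osteoclast markers above, the list is no separate measure.

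In the PGC-1 and ERR family, *Ppargc1b* and *Esrra* were the detected members of their kinds beside *Pprc1*. *Ppargc1a* and *Esrrg* had at most 3 reads in a library and *Esrrb* was listed at 0 in all 8. The nuclear regulators of mitochondria moved little by library number, *Tfam* by 0.02 and *Gabpa* by 0.22 without being parted, and *Nrf1* was parted downwards by -0.18. Of 12 mitochondrial genes known as targets, 9 were parted upwards, with a median log2 difference of 0.44 and the largest, 0.67, for *Idh3a*, an enzyme of the citric acid cycle. Between genotypes 0 of 12 were called by limma, and 0 had an unadjusted p under 0.05. Of the log2 fold changes 11 of 12 were below 0, none lower than -0.10, the exception being *Cycs*, encoding cytochrome c, at 0.07 (SE 0.09). Their median was -0.05, beside -0.0031 over all tested genes. As most of these genes moved together by library number, their signs are not independent of each other, and a shift of the list was not tested.

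**Figure D4:**
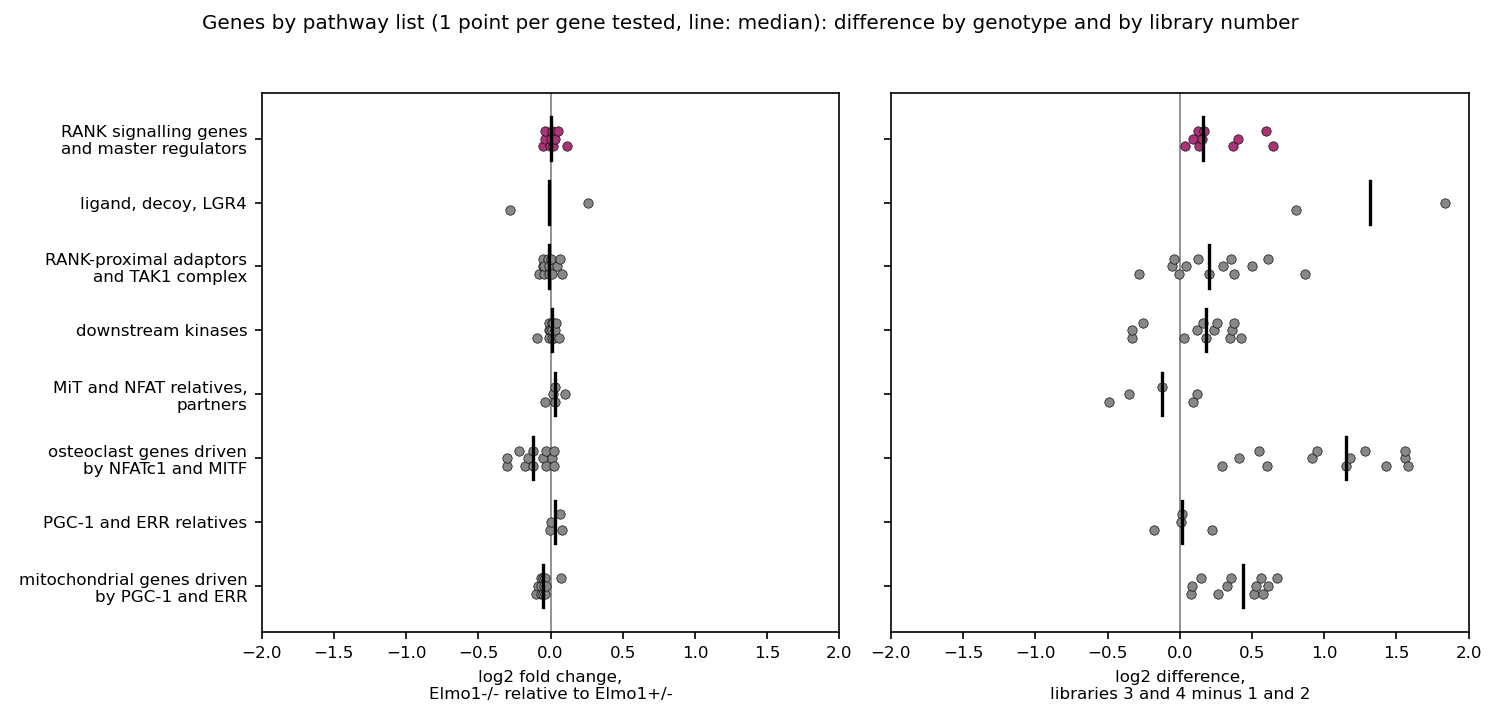
Log2 fold change between the genotypes (left x axis) and log2 difference between libraries 3 and 4 and libraries 1 and 2 (right x axis, same scale) for the 10 genes and for 7 lists of pathway genes (y axis), 1 point per tested gene with a line at the median. Points on the left stay between -0.30 and 0.26, while on the right the NFATc1 and MITF targets reach 1.58 and *Tnfrsf11b* 1.83.

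The genes whose levels across the 8 libraries were most like those of the receptor and of *Nfatc1* were found by the root-mean-square difference of centred log2 values, among 10902 genes with a mean normalized count of at least 100. Nearest to *Tnfrsf11a* were *Ube2g1*, encoding a ubiquitin-conjugating enzyme, at 0.04, *Rap2c*, encoding a small GTPase, at 0.05 and the gene model *Gm7389* at 0.05, with *Traf6* at rank 202. Nearest to *Nfatc1* were *Sipa1l3* at 0.05, *Mmachc* at 0.06 and *Oxr1* at 0.06. *Ppargc1b* came at rank 55 and *Tnfrsf11a* at rank 243, while *Tfec* came at rank 4571. A small difference here means a like order and size of values over 8 libraries that form 2 sets, and many genes share that order.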

How the data were processed

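mRNA libraries (Illumina TruSeq, 75 bp paired-end reads) of 4 Elmo1-/- and 4 Elmo1+/- osteoclast cultures were used, grouped by genotype label. The submitters' processing notes name FastQC, STAR, featureCounts and DESeq2, while a genome build is not given in the sources used here. For the deposited table the authors divided the counts of each library by 1 DESeq2 size factor, which gives a normalized signal. The deposited table also holds the authors' own comparison of the genotypes (fold change, p-value), which was not used. Dividing by the smallest step of each library gave whole reads for every value within 0.01 of a read.

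Genotypes were compared with limma 3.58.1 (R 4.3.3; robust eBayes with a trend). The input was log2(normalized count + 1) of the 14139 genes that reached 10 in 4 or more libraries, and p-values were adjusted over them by the Benjamini-Hochberg method. Fold changes are on that log2 scale, and the pseudocount understates changes of low genes. Single genes and ratios had exact two-sided permutation tests over 70 arrangements. The main limma fit had genotype as its only term. Its p-values and those of the permutation tests therefore measure the spread between mice together with the difference between library sets. That set difference made up 70.0% of the sum of squares of log2 values for *Nfatc1* and 76.4% for *Ppargc1b*, but 13.1% for *Tfec*. Alternatives were edgeR 4.0.16 and DESeq2 1.42.0 on the recovered reads, equal totals, TMM, pseudocounts of 0.5 and 8, no minimum, a minimum of 50, each library left out, the replicate number as a block and the library set as a term. The scripts were tested on simulated data that held no difference between library sets, so that check does not cover the spread seen here. The deviations of same-numbered libraries correlated at 0.156 to 0.703 across genes, over 0.1 in all 4 pairs, which met the rule used here for pairing. Pairs of other numbers within a set lay between 0.0259 and 0.691. As these ranges overlap, the correlations cannot tell a pairing by number from the sets. The labels do not say what a number marks. No 2 libraries were copies, the chi-square per gene being at least 8.58.

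Ensembl identifiers were looked up in release 21 of the GENCODE mouse annotation (GRCm38) for names and positions, and 46005 of 46517 matched. Upstream sequences came from RefSeq (GRCm38.p6). The 10 genes, the gene lists and the naming rule (all 10, the extremes of each list, genes whose genotypes do not overlap, close relatives and the nearest in pattern) were chosen with earlier results of these data known. The values of 1 gene that the rule names are not reported here. *Cblb*, *Tnfaip3*, *Map2k3*, *Mapk14*, *Map3k14*, *Mapk3*, *Traf2*, *Ostm1*, *Acp5*, *Gabpa*, *Nrf1*, *Tfam* and *Idh3a* were named after their differences between library sets were seen.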

Additional observations from a re-analysis of the deposited data

Results flagged for a closer look

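Of 28 groups of 4 libraries examined for a library standing apart, 28 being the 10 genes and 4 ratios in each genotype, 1 passed the 95% critical value of Dixon's test, and chance gives about 1.4. In the Elmo1-/- cultures the log2 ratio of *Tab2* to *Map3k7* was 1.501 in library 1 and between 1.36 and 1.38 in the other 3, a gap of 0.854 of the range. Elmo1-/- library 1 was also the lowest of the 8 libraries for 7 of the 10 genes and lay farthest out on the first principal component. The share of all tested genes that were lowest in that library was not counted, so the 7 of 10 has no background beside it.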

How the results depend on the processing

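No alternative called any of the 10 genes, and the smallest adjusted p among them was 0.936, by limma without Elmo1-/- library 1. With the replicate number as a block, limma called 1 gene in all, *Elmo1*, and 0 of the 10, so the block changed no call. It did change the unadjusted p-values by limma. Over all tested genes, those under 0.05 rose from 133 to 389 with the block and to 411 with the library set as a term. DESeq2 called 2 genes over all, *Elmo1* and the pseudogene *Gpr137b-ps*, the latter named after its value was seen, and leaving out each library gave 1 to 2. The signs of fold changes this near 0 were not stable: 29 of 180 recomputed values reversed. The fits with a block or set term and those with another minimum leave the fold change unchanged, so their values could not reverse. The share over all 180 therefore understates how often signs moved where they could. *Tab2* was at 0.0011 under equal totals, and *Gab2* at -0.00058 under TMM, -0.0013 by edgeR and -0.00042 by DESeq2. Leaving out each library gave -0.0501 to 0.192 for *Tnfrsf11a*, -0.162 to 0.0593 for *Traf6*, -0.0418 to 0.0313 for *Gab2*, -0.0409 to 0.0794 for *Map3k7*, -0.0319 to 0.0346 for *Tab2*, -0.12 to 0.261 for *Nfatc1*, -0.127 to 0.25 for *Ppargc1b* and -0.0885 to 0.0244 for *Esrra*. *Mitf* (0.05 to 0.22) and *Tfec* (-0.06 to -0.01) kept their signs. For the ratios the log2 differences ran from 0.101 to 0.257 for *Mitf* to *Tfec*, -0.0445 to 0.258 for *Ppargc1b* to *Esrra*, -0.0448 to 0.00897 for *Tab2* to *Map3k7* and -0.138 to -0.0679 for *Traf6* to *Tnfrsf11a*. The log2 difference by library number was -0.0254 for *Tfec* in Elmo1-/- cultures alone and -0.0341 for *Esrra* in Elmo1+/- cultures alone. With 4 mice a genotype, the limma fit with genotype alone left any difference within the 95% interval of *Ppargc1b* possible. The width of that interval includes the difference between library sets. Intervals from the fits with a block or set term are not given here.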
